A study of Mus musculus with 6 samples.

Results

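The genes described here are 44 named genes that type I interferon is known to induce. They were taken by gene symbol from the table of 16511 genes, where 42 of them were found and analysed. Mx1 and Mx2 are not analysed here. RNA was sequenced from B lymphocytes of mouse spleen, enriched with magnetic beads that hold back other cells. There were 3 libraries labelled GPR40-KO and 3 labelled GPR40-WT, called labelled KO and labelled WT below. GPR40, encoded by Ffar1, is a receptor for medium and long-chain free fatty acids. The series' design text calls the KO mice GPR40-BKO, whereas the sample labels say GPR40-KO; neither names the allele, a Cre driver, the strain, the age or any treatment. Whether replicates are separate mice is not stated, so p-values describe spread among libraries that could be in part technical.

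The libraries held between 14907080 and 15461425 estimated counts each. Ffar1 went against the labels, with 273, 392 and 304 counts in the libraries labelled KO and 0 in each of the 3 labelled WT. Each direction below is therefore that of the label. The B cell markers Ms4a1 and Cd79a were abundant in both groups, in CPM (estimated counts scaled to library size). Ms4a1, which encodes CD20, averaged 1162 ± 87.6 CPM in the libraries labelled KO and 493 ± 109 CPM in those labelled WT (SD, n = 3 each). Cd79a, a signal-transducing chain beside the B cell's antigen receptor, averaged 2540 ± 139.8 CPM in the libraries labelled KO and 1993 ± 464 CPM in those labelled WT. Markers of other blood cells were also present, at levels given after the main comparison.

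Type I interferons bind the receptor of Ifnar1 and Ifnar2, whose kinases Jak1 and Tyk2 activate transcription factors. These assemble with Irf9 into the complex ISGF3, which binds interferon-stimulated response elements in the promoters of its targets. The products detect viral nucleic acid, block translation, degrade RNA or hold virus at membranes, and some feed back on the pathway. In B cells the same pathway is known to lower activation thresholds and to promote antibody responses.

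Promoter sequences were looked up in a RefSeq table of build GRCm38.p6, the same assembly as mm10, which gives 250 bases before and 50 bases after each gene's start. Of the 42 genes, 34 had a window. A response element was written as GAAANNGAAA, where N is any base, and searched on both strands. It was found in 16 of the 34 genes (47.1%), and in 1079 of 27025 genes of the table (3.99%). The gamma-activated site, written as TTCNNNGAA, which reads the same on both strands, was found in 8 of the 34 (23.5%) and in 9.55% of all genes. Matches of the 2 motifs overlapped in 2 of the 34. The sequences below are those of the 8 genes of highest mean level among the 16, shown because they carry the element through which these genes are known to respond. Each is 5′ to 3′ on the strand of the gene, with the first match in the window, and any that overlap it, in capitals. A match on the other strand appears as the reverse complement.
Ifitm3: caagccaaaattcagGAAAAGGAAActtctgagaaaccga
Trim30a: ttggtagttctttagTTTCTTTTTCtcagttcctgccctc
Bst2: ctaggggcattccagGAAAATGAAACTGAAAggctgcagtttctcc
Stat2: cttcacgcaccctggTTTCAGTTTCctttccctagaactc
Ddx58: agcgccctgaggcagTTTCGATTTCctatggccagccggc
Isg15: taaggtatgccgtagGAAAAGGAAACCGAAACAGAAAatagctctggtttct
Ifit3: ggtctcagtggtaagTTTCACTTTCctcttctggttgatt
Oas1a: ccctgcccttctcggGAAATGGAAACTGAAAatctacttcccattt

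The Ifitm3 stretch lies at chr7:141010718-141010757 (minus strand) and that of Trim30a at chr7:104465205-104465244 (minus strand). Those of Bst2 and Stat2 lie at chr8:71537572-71537617 (minus strand) and chr10:128270261-128270300 (plus strand). Those of Ddx58 and Isg15 lie at chr4:40239799-40239838 (minus strand) and chr4:156200860-156200911 (minus strand). Those of Ifit3 and Oas1a lie at chr19:34583358-34583397 (plus strand) and chr5:120907515-120907560 (minus strand). The match in Isg15 is a run of 3 overlapping copies that starts 78 bases before the gene's start, and those in Bst2 and Oas1a are runs of 2 that start 130 and 20 bases before it. In Ifitm3 and Ddx58 the match shown starts 2 bases after the start. The windows of Ifitm3 and Ifit3 hold 2 matches each, of which 1 is shown. A match is a description of the letters and not evidence of binding.

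Most of these genes had lower values in the libraries labelled KO, but few passed the test at this spread. Of the 42, 2 fell, namely Bst2 and Ifih1, 1 rose, namely Samd9l, and 39 did not pass (edgeR quasi-likelihood test, Benjamini-Hochberg over 12234 tested genes, threshold 0.05). Over all tested genes 9.37% were called in either direction. In the RefSeq annotation of GRCm38 these 3 genes lie at chr8:71534255-71537472, chr2:62595618-62646255 and chr6:3372257-3399571. The share that fell was 4.76%, against 4.81% of all tested genes, and the share that rose was 2.38%, against 4.55%. The fold change on the log2 scale was below 0 for 40 of 42 genes (95.2%), where 48.5% of all tested genes were below 0. Its median was -0.97, with a range from -2.11 to 0.58, and the median of all tested genes was 0.01. Without the library labelled WT replicate 1 it was -0.52. The unadjusted p was under 0.05 for 15 of the 42, and for 3458 of the 12234 tested genes. The groups did not overlap for 13 genes lower in the libraries labelled KO (31.0%, against 16.1% of all tested genes) and for 1 higher in them (2.38%, against 17.3%).

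The replicate number weighed heavily on these counts. Both groups carry the numbers 1 to 3, and libraries of the same number deviated together from their group means. The labels do not state that equal numbers mean pairs. The block was used because of these shared deviations (Pearson r of 0.175, 0.435 and 0.215 over all tested genes), which come from the same data. A partner below means only the library of the same number. With the number as a block in the same test, 29 of the 42 genes were lower in the libraries labelled KO, 1 was higher and 12 did not pass. These shares are 69.0%, against 12.8% of all tested genes, for lower genes and 2.38%, against 7.96%, for higher ones. DESeq2, without the block, called 16 lower and 1 higher, against 11.4% and 6.99% of all tested genes. Blocked adjusted p-values below come from edgeR with this block. Leaving out a same-numbered pair under the block gave 24, 24 and 31 lower genes without replicates 1, 2 and 3, against 9.12%, 7.21% and 11.8% of all tested genes. Leaving out 1 library without the block gave 0 lower genes without any of those labelled KO, against 1.46%, 0.753% and 1.91% of all tested genes for replicates 1, 2 and 3. At an unadjusted p under 0.05 there were 23, 11 and 9 of the 42, with no share of all tested genes taken. It gave 3 lower genes without each of those labelled WT, against 2.70%, 9.57% and 2.05%.

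In 37 of 42 genes (88.1%, against 27.3% of all tested genes) the library labelled KO was lower than that labelled WT in all 3 same-numbered pairs. The median log2 ratio of the library labelled KO to that labelled WT was -0.93 for replicate 1, -0.80 for replicate 2 and -1.05 for replicate 3.

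**Figure D1:**
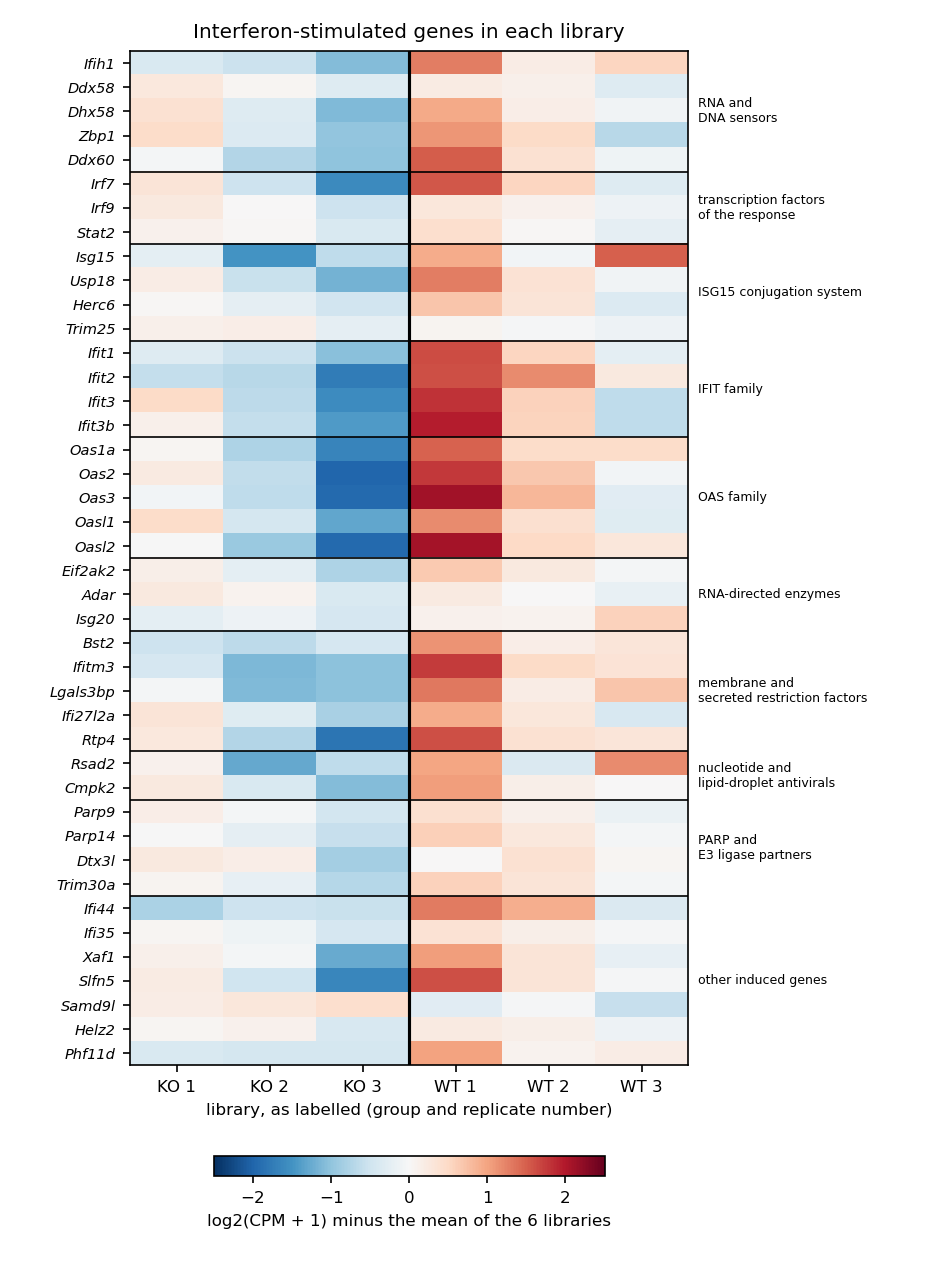
Values of the 42 interferon-stimulated genes in each library, as log2(CPM + 1) minus the gene's mean over the 6 libraries, with the libraries labelled KO left of those labelled WT and genes grouped by role. The library labelled WT replicate 1 is the highest of 6 for 34 genes and that labelled KO replicate 3 the lowest of 6 for 34 genes.

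The spread within each group was about as large as the difference between the groups. Each gene's log2(CPM + 1) was centred on its mean over the 6 libraries. The median over the 42 genes in the libraries labelled KO replicates 1, 2 and 3 was 0.12, -0.44 and -0.91, and in those labelled WT replicates 1, 2 and 3 it was 1.05, 0.30 and -0.08. The library labelled KO replicate 1 thus lay above the library labelled WT replicate 3. That labelled KO replicate 1 was the highest of its group for 36 of 42 genes, and that labelled WT replicate 1 for 37. Within the libraries labelled KO, the median log2 ratio of CPM + 1 of replicate 1 to replicate 3 was 0.85, and within those labelled WT it was 1.02. Across the 42 genes these ratios had a Pearson r of 0.63 and a Spearman rho of 0.65, against an r of 0.13 over all tested genes. For replicate 1 to replicate 2 the r was 0.74, against 0.37 over all tested genes, and for replicate 2 to replicate 3 it was 0.63, against 0.35. Genes share these libraries and are not independent, so the correlation is a description.

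**Figure D2:**
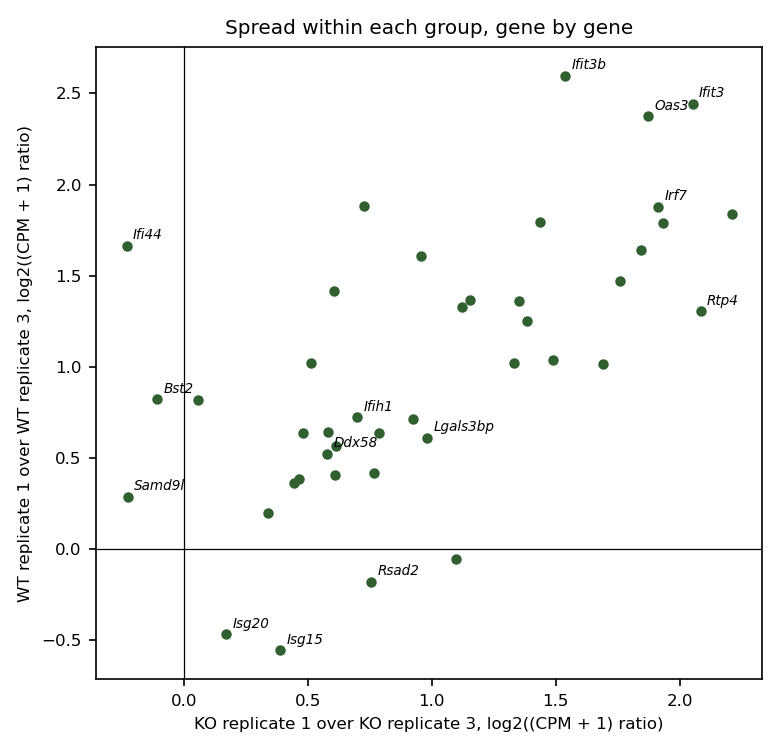
Log2 ratio of replicate 1 to replicate 3 of CPM + 1 for each of the 42 genes, with the ratio within the libraries labelled KO on the x axis and that within those labelled WT on the y axis, and some genes named. The ratio is above 0 for 39 of the 42 genes within the libraries labelled KO and for 38 within those labelled WT.

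Markers of several other blood cells differed between the groups as well, while summed erythroid and platelet markers overlapped. Beside the counts of lower markers, the shares of all tested genes lower were 4.81% by edgeR, 12.8% with the block and 11.4% by DESeq2. Summed CPM of 16 neutrophil markers lay between 141 and 298 in the libraries labelled KO and between 819 and 6550 in those labelled WT, with 4 of 16 lower, 9 with the block and 16 by DESeq2. All 16 had an unadjusted p under 0.05, as had 3458 of the 12234 tested genes. All 16 were also lower without overlap between the groups, against 16.1% of all tested genes. Summed monocyte and macrophage markers lay between 1501 and 2799 CPM in the libraries labelled KO and between 3235 and 8704 CPM in those labelled WT, with 4 of 17 lower, 15 with the block and 9 by DESeq2. Summed T cell markers lay between 112 and 195 CPM in the libraries labelled KO and between 191 and 893 CPM in those labelled WT, with 1 of 12 tested lower, 4 with the block and 7 by DESeq2. No gene of the neutrophil, macrophage or T cell lists that was tested was at 0 in all 3 labelled KO. Summed erythroid markers lay between 332 and 1550 CPM in the libraries labelled KO and between 667 and 8208 CPM in those labelled WT. Of these 10, 0 were called by edgeR, with the block or by DESeq2. Summed platelet markers lay between 11.4 and 48.0 CPM in the libraries labelled KO and between 24.8 and 77.8 CPM in those labelled WT. Of 4 tested, 0 were called by edgeR or DESeq2 and 2 were lower with the block. All tested markers of these lists had a log2 fold change below 0.

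Markers of natural killer and dendritic cells, which are known sources or targets of interferon, were read in the same way. The shares of all tested genes lower were again 4.81% by edgeR, 12.8% with the block and 11.4% by DESeq2. Those higher were 4.55%, 7.96% and 6.99%. Summed NK cell markers lay between 6.27 and 7.74 CPM in the libraries labelled KO and between 14.7 and 30.4 CPM in those labelled WT, with 2 of 5 tested lower, 3 with the block and 3 by DESeq2. Gzma was at 0 in all 3 labelled KO. Summed conventional dendritic cell markers lay between 288 and 376 CPM in the libraries labelled KO and between 417 and 566 CPM in those labelled WT, with 2 of 8 tested lower, 5 with the block and 4 by DESeq2. Summed plasmacytoid dendritic cell markers went the other way, between 620 and 789 CPM in the libraries labelled KO and between 471 and 586 CPM in those labelled WT, with 2 of 9 tested higher and 2 lower, and 2 higher and 3 lower both with the block and by DESeq2. The median log2 fold change of this list was -0.82. Siglech, a defining marker of these cells, averaged 3.44 ± 2.51 CPM in the libraries labelled KO and 16.2 ± 5.30 CPM in those labelled WT (log2 fold change -2.23 ± 0.60, SE, edgeR adjusted p = 0.0685). It was lower with the block (blocked adjusted p = 6.62e-04). Most of the sum was Spib, a transcription factor that B cells also use, at 632.5 CPM on average in the libraries labelled KO and 275 CPM in those labelled WT. Gzmc of the same list was at 0 in all 3 labelled KO. Summed B cell markers lay between 11506 and 12774 CPM in the libraries labelled KO and between 5542 and 8148 CPM in those labelled WT, with 6 of 10 higher, 7 with the block and 6 by DESeq2.

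Centred in the same way, the neutrophil list had medians of -1.11, -1.50 and -1.94 in the libraries labelled KO replicates 1, 2 and 3, and 3.28, 1.36 and 0.15 in those labelled WT replicates 1, 2 and 3. The library labelled WT replicate 1 was highest for neutrophil, T cell, NK cell and both dendritic lists as well as for the interferon-stimulated genes. Macrophage markers were highest in that labelled WT replicate 3, at 1.29, where the interferon-stimulated genes stood at -0.08. The part of these cells in the values below was not tested. In bulk RNA, fewer cells of a type and less RNA per cell cannot be told apart.

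**Figure D3:**
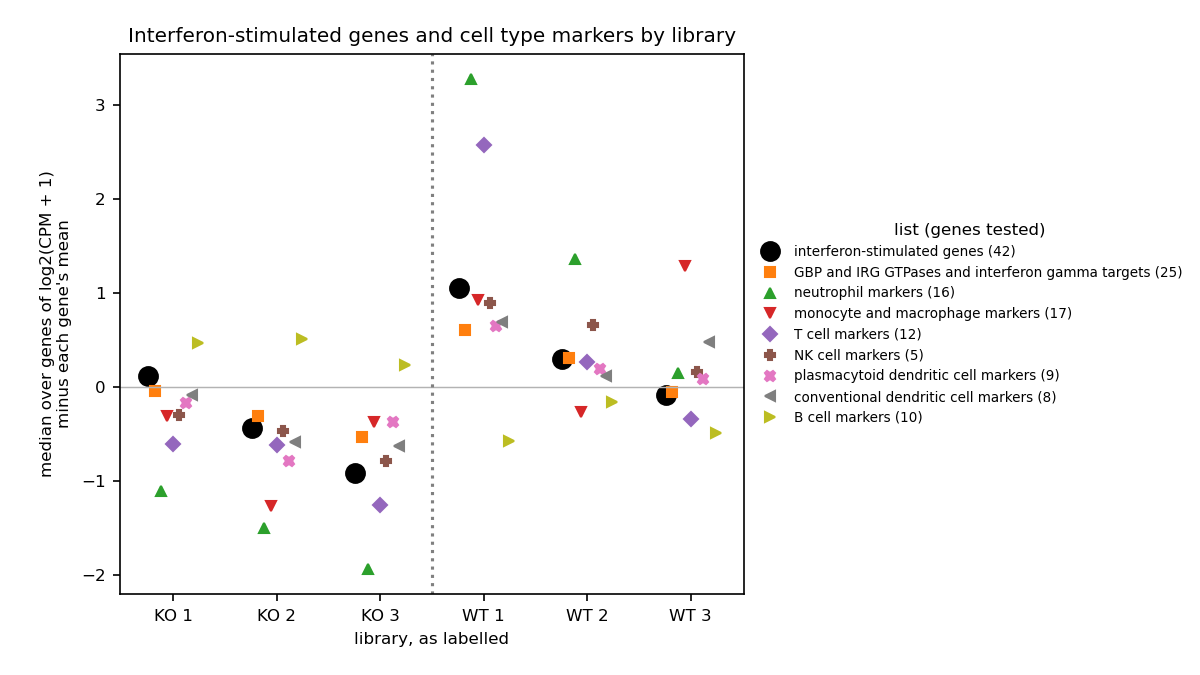
Median of log2(CPM + 1) relative to each gene's mean, per library, for the interferon-stimulated genes and for lists of cell type markers, with the libraries labelled KO left of those labelled WT. The interferon-stimulated genes stand at 1.05 in the library labelled WT replicate 1, where the neutrophil list stands at 3.28.

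For this and each role group below, the shares of all tested genes lower were 4.81% by edgeR, 11.4% by DESeq2 and 12.8% with the block. By edgeR 4.55% were higher, and 3458 of the 12234 tested genes had an unadjusted p under 0.05. Among the 5 sensors of RNA and DNA, Ifih1 fell and 4 did not pass, while 4 were lower with the block. Ifih1, which encodes MDA5, the sensor of long double-stranded RNA, had 11.2, 10.05 and 6.53 CPM in the libraries labelled KO and 37.5, 17.1 and 22.3 CPM in those labelled WT. The groups had no overlap, and the library labelled WT replicate 1 stood highest. The log2 fold change was -1.47 ± 0.34 (SE, n = 3 per group, edgeR adjusted p = 0.0428). Among the fits without 1 library it was called only without that labelled WT replicate 1 or 2, with an adjusted p of at most 0.146 in the rest. Ddx58, which encodes RIG-I, the sensor of RNA with a 5′ triphosphate, had 170.3, 147 and 114 CPM in the libraries labelled KO, against 165, 155 and 114 CPM in those labelled WT. Its groups overlapped throughout, with a log2 fold change of -0.01 ± 0.19 (edgeR adjusted p = 0.981). Ddx58 averaged 51.2 TPM in the libraries labelled KO and 52.0 TPM in those labelled WT, and Ifih1 2.95 and 8.18 TPM, where TPM scales counts to gene length and to a fixed sum per library.

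Zbp1, a sensor of Z-form nucleic acid that can start necroptosis, had 21.4, 11.8 and 7.27 CPM in the libraries labelled KO and 33.9, 21.7 and 9.04 CPM in those labelled WT. The groups overlapped, while each library labelled KO was below its same-numbered partner (log2 fold change -0.67 ± 0.60, edgeR adjusted p = 0.519, blocked adjusted p = 0.0237). Dhx58, which encodes LGP2, a regulator of both RNA sensors, had a log2 fold change of -0.66 ± 0.47 (edgeR adjusted p = 0.421, blocked adjusted p = 0.00852). For Ddx60, a helicase that aids RNA sensing, it was -1.40 ± 0.51 (edgeR adjusted p = 0.142, blocked adjusted p = 0.00134).

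None of the 3 transcription factors of the response was called by edgeR or by DESeq2, and none had an unadjusted p under 0.05; 1 was lower with the block. Irf7, which drives the amplifying wave of interferon transcription, had 65.6, 36.3 and 16.7 CPM in the libraries labelled KO and 155, 75.8 and 41.3 CPM in those labelled WT. Each library labelled KO lay below its same-numbered partner by a similar ratio, although the groups overlapped. The log2 fold change was -1.20 ± 0.70 (edgeR adjusted p = 0.340), and with the block -1.20 ± 0.09 (blocked adjusted p = 8.19e-05). Irf9, the DNA-binding subunit of ISGF3, had 135, 115 and 78.7 CPM in the libraries labelled KO and 139, 122 and 104 CPM in those labelled WT. Its groups overlapped (log2 fold change -0.15 ± 0.21, edgeR adjusted p = 0.681). Stat2, its partner, had a log2 fold change of -0.17 ± 0.19 (edgeR adjusted p = 0.622), and neither passed with the block.

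In the ISG15 system, which attaches a ubiquitin-like protein to its targets, 0 of 4 were called by edgeR (1 at an unadjusted p under 0.05), 2 by DESeq2 and 3 with the block, all lower. Isg15, the modifier itself, had 6.33, 2.06 and 4.60 CPM in the libraries labelled KO and 15.5, 7.22 and 23.3 CPM in those labelled WT. The groups had no overlap, and here the library labelled WT replicate 3 was highest. The log2 fold change was -1.82 ± 0.55 (edgeR adjusted p = 0.0873, blocked adjusted p = 0.00129). For Usp18, which removes ISG15 and dampens the interferon receptor, it was -1.11 ± 0.51 (edgeR adjusted p = 0.225, blocked adjusted p = 7.44e-04). For Herc6, the mouse ligase that conjugates ISG15, it was -0.51 ± 0.27 (edgeR adjusted p = 0.272, blocked adjusted p = 0.0372). Trim25, a ubiquitin ligase that acts on RIG-I, had 369.9, 383 and 292 CPM in the libraries labelled KO and 359, 331 and 313 CPM in those labelled WT. Its groups overlapped, and it was 1 of the 2 genes above 0 (log2 fold change 0.06 ± 0.11, edgeR adjusted p = 0.778).

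The IFIT family, proteins that bind viral RNA and block its translation, had the lowest median log2 fold change of the role groups, -1.71. Of the 4 genes, 0 were called by edgeR (2 at an unadjusted p under 0.05), 3 by DESeq2 and 4 with the block, all lower. Of all tested genes, 4.81%, 11.4% and 12.8% were lower in these 3 fits. Ifit2 had 20.9, 19.6 and 8.87 CPM in the libraries labelled KO and 101, 74.1 and 38.5 CPM in those labelled WT. The highest library labelled KO was below the lowest labelled WT. Its log2 fold change of -2.11 ± 0.49 was the lowest of the 42 genes (edgeR adjusted p = 0.0567), and with the block it was -2.10 ± 0.12 (blocked adjusted p = 2.03e-05). Ifit3 had 34.9, 15.5 and 7.67 CPM in the libraries labelled KO and 89.6, 37.7 and 15.6 CPM in those labelled WT. Its groups overlapped, with each library labelled KO below its partner (log2 fold change -1.30 ± 0.85, edgeR adjusted p = 0.388, blocked adjusted p = 2.21e-04). Ifit1 and Ifit3b had log2 fold changes of -1.72 ± 0.55 and -1.70 ± 0.86 (edgeR adjusted p = 0.0955 and 0.262, blocked adjusted p = 0.00735 and 0.00332). Ifit3 and Ifit3b are close copies with fractional counts, so their split of shared reads is uncertain.

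The OAS family includes enzymes that make the 2′-5′ linked oligoadenylates that switch on RNase L, and some OAS-like members act in other ways. Of 5 genes, 0 were called by edgeR (2 at an unadjusted p under 0.05), 1 by DESeq2 and 5 with the block, all lower, with a median log2 fold change of -1.58. Oas1a had 22.5, 12.3 and 6.27 CPM in the libraries labelled KO and 62.3, 30.3 and 30.4 CPM in those labelled WT. The groups were apart, and the library labelled WT replicate 1 stood well above the other two (log2 fold change -1.58 ± 0.55, edgeR adjusted p = 0.134, blocked adjusted p = 7.53e-04). Oasl1, which limits translation of Irf7 in mice, had 31.5, 16.5 and 8.60 CPM in the libraries labelled KO and 52.4, 30.3 and 18.3 CPM in those labelled WT. Its groups overlapped (log2 fold change -0.83 ± 0.60, edgeR adjusted p = 0.423, blocked adjusted p = 0.00155). Log2 fold changes of Oas2, Oas3 and Oasl2 were -1.56 ± 0.77, -1.98 ± 0.83 and -2.04 ± 0.78, with edgeR adjusted p = 0.260, 0.200 and 0.168 and blocked adjusted p of at most 1.72e-04. Oas1a and Oas3 also had fractional counts.

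Among enzymes that act on RNA, 0 of 3 were called by edgeR (1 at an unadjusted p under 0.05) or by DESeq2, and Eif2ak2 was lower with the block. Eif2ak2 encodes PKR, the kinase that halts translation on double-stranded RNA (log2 fold change -0.57 ± 0.29, edgeR adjusted p = 0.263, blocked adjusted p = 0.00164). Adar, which edits adenosine to inosine in double-stranded RNA, had 309, 277 and 202 CPM in the libraries labelled KO and 306, 265 and 230.1 CPM in those labelled WT. Its groups overlapped, with a log2 fold change of -0.02 ± 0.17 (edgeR adjusted p = 0.953). Isg20, an exonuclease of single-stranded RNA, had 11.2, 12.2 and 9.87 CPM in the libraries labelled KO and 14.7, 14.4 and 20.7 CPM in those labelled WT. Values of the groups did not overlap, yet it did not pass either fit (log2 fold change -0.57 ± 0.19, edgeR adjusted p = 0.0978, blocked adjusted p = 0.0817).

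The table of transcripts lists the forms of Adar, whose long form is known to be interferon-inducible and whose short form is made at all times. Of the transcript counts, 54.7% were not whole, so the split of reads between forms is an estimate. The transcripts of 1178 and 1152 codons begin at chr3:89730748 and that of 930 codons at chr3:89715022 (GRCm38). The 1178-codon transcript had 35.33, 20.95 and 23.99 TPM in the libraries labelled KO and 17.76, 11.41 and 24.19 TPM in those labelled WT (log2 fold change 0.59 ± 0.34, edgeR adjusted p = 0.730). The 1152-codon transcript had 55.88, 61.83 and 30.08 TPM in the libraries labelled KO and 68.67, 63.25 and 38.97 TPM in those labelled WT (log2 fold change -0.21 ± 0.31, edgeR adjusted p = 0.987). The 930-codon transcript had 1.16, 1.62 and 3.38 TPM in the libraries labelled KO and 5.39, 6.15 and 4.32 TPM in those labelled WT (log2 fold change -1.33 ± 0.47, edgeR adjusted p = 0.406). The groups overlapped for the 1178-codon and 1152-codon transcripts and not for the 930-codon one. Its share of the gene's counts was 1.26%, 1.95% and 5.94% in the libraries labelled KO and 5.94%, 7.69% and 6.45% in those labelled WT. Of 83 tested transcripts of the 42 genes, 0 were called with or without the block. At an unadjusted p under 0.05 there were 18 without the block and 31 with it. The share of all tested transcripts at that p was not taken. Over all tested transcripts 0.0353% were called lower and 0.119% higher, and 0.00% with the block.

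Among membrane and secreted factors, Bst2 fell and 4 did not pass, while all 5 were lower with the block. Bst2, which encodes tetherin, a protein that holds budding virus at the cell surface, had 16.9, 15.4 and 18.3 CPM in the libraries labelled KO and 55.3, 27.8 and 30.8 CPM in those labelled WT. The groups had no overlap, and the 3 libraries labelled KO lay within a narrow range. The log2 fold change was -1.17 ± 0.27 (edgeR adjusted p = 0.0411). As for Ifih1, the call was kept only without the library labelled WT replicate 1 or 2, with an adjusted p of at most 0.154 otherwise.

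Ifitm3, which blocks virus fusion in endosomes, had 16.2, 9.51 and 10.3 CPM in the libraries labelled KO and 75.9, 31.1 and 27.9 CPM in those labelled WT. Its groups did not overlap (log2 fold change -1.91 ± 0.47, edgeR adjusted p = 0.0645, blocked adjusted p = 1.69e-04). Ifi27l2a, a small protein that is strongly induced by interferon, had the highest mean level per length of the 42 genes, 668.7 TPM in the libraries labelled KO and 999.7 TPM in those labelled WT. It had 98.0, 63.5 and 44.4 CPM in the libraries labelled KO and 150.3, 95.7 and 59.3 CPM in those labelled WT. The groups overlapped, with each library labelled KO below its partner (log2 fold change -0.57 ± 0.44, edgeR adjusted p = 0.466, blocked adjusted p = 0.00231). Lgals3bp, a secreted glycoprotein, and Rtp4, a chaperone of G protein-coupled receptors, had log2 fold changes of -1.47 ± 0.43 and -1.49 ± 0.69 (edgeR adjusted p = 0.0978 and 0.233, blocked adjusted p = 5.26e-05 and 0.00255).

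Rsad2 and Cmpk2 are neighbours that act together in making a chain-terminating nucleotide. Neither was called by edgeR, with 0 at an unadjusted p under 0.05; DESeq2 called 1 and the block both, all lower. Rsad2, which encodes viperin, had 21.3, 7.45 and 12.2 CPM in the libraries labelled KO and 40.0, 15.1 and 45.5 CPM in those labelled WT (log2 fold change -1.30 ± 0.56, edgeR adjusted p = 0.202, blocked adjusted p = 0.00375). Cmpk2, a nucleotide kinase, had 21.3, 13.4 and 7.87 CPM in the libraries labelled KO and 37.6, 19.9 and 18.0 CPM in those labelled WT (log2 fold change -0.83 ± 0.45, edgeR adjusted p = 0.286, blocked adjusted p = 0.00525). The groups overlapped for both genes.

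The 2 PARP genes, Dtx3l and Trim30a had smaller differences, with a median log2 fold change of -0.39. Of 4, 0 were called by edgeR (1 at an unadjusted p under 0.05), and 2 both by DESeq2 and with the block, all lower. Trim30a, a ubiquitin ligase that restrains Toll-like receptor signalling, had 234, 192 and 135 CPM in the libraries labelled KO and 333, 279.5 and 214 CPM in those labelled WT. Parp14, an ADP-ribosyltransferase that aids STAT6 signalling, had 217, 187 and 145 CPM in the libraries labelled KO and 329, 261 and 211 CPM in those labelled WT. In both genes the library labelled KO replicate 1 lay above that labelled WT replicate 3, so the groups overlapped. Log2 fold changes were -0.56 ± 0.24 for Trim30a (edgeR adjusted p = 0.193, blocked adjusted p = 9.64e-04) and -0.55 ± 0.20 for Parp14 (edgeR adjusted p = 0.140, blocked adjusted p = 0.00118). Parp9 and its partner ligase Dtx3l had -0.22 ± 0.20 and -0.23 ± 0.30 and did not pass in either fit.

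Among the remaining 7 genes, Samd9l rose and 6 did not pass, while 2 were lower with the block and 2 by DESeq2. Samd9l, an antiviral factor that suppresses myeloid growth, had 719.9, 774 and 843 CPM in the libraries labelled KO and 519.7, 622 and 426 CPM in those labelled WT. No overlap was seen between the groups, and the highest labelled WT was replicate 2 (log2 fold change 0.58 ± 0.14, edgeR adjusted p = 0.0411, blocked adjusted p = 0.0181). It was called in 1 of 6 fits that left out 1 library, that without labelled WT replicate 2 (adjusted p up to 0.147 in the others). Helz2, a helicase that coactivates nuclear receptors, had 540.3, 565 and 397 CPM in the libraries labelled KO and 616, 580.1 and 479.8 CPM in those labelled WT. Its groups overlapped (log2 fold change -0.16 ± 0.15, edgeR adjusted p = 0.544).

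Ifi44 was the lowest of the 42 in mean level per length. It had 13, 19 and 18 counts in the libraries labelled KO and 108, 77 and 23 counts in those labelled WT. The groups had no overlap, but the library labelled WT replicate 3 was close to those labelled KO (log2 fold change -2.01 ± 0.58, edgeR adjusted p = 0.0651, blocked adjusted p = 0.0568). Xaf1, a promoter of apoptosis, had a log2 fold change of -0.80 ± 0.49 (edgeR adjusted p = 0.352, blocked adjusted p = 0.00957). For Slfn5, of the Schlafen family, it was -1.30 ± 0.67 (edgeR adjusted p = 0.286, blocked adjusted p = 0.00209). Ifi35 and Phf11d had -0.33 ± 0.16 and -1.12 ± 0.35 and did not pass in either edgeR fit (edgeR adjusted p = 0.211 and 0.0829, blocked adjusted p = 0.0608 and 0.0566). Phf11d had no overlap between the groups. It was lower by DESeq2 (DESeq2 adjusted p = 0.0391), as was Ifi44 (DESeq2 adjusted p = 0.0114).

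**Figure D4:**
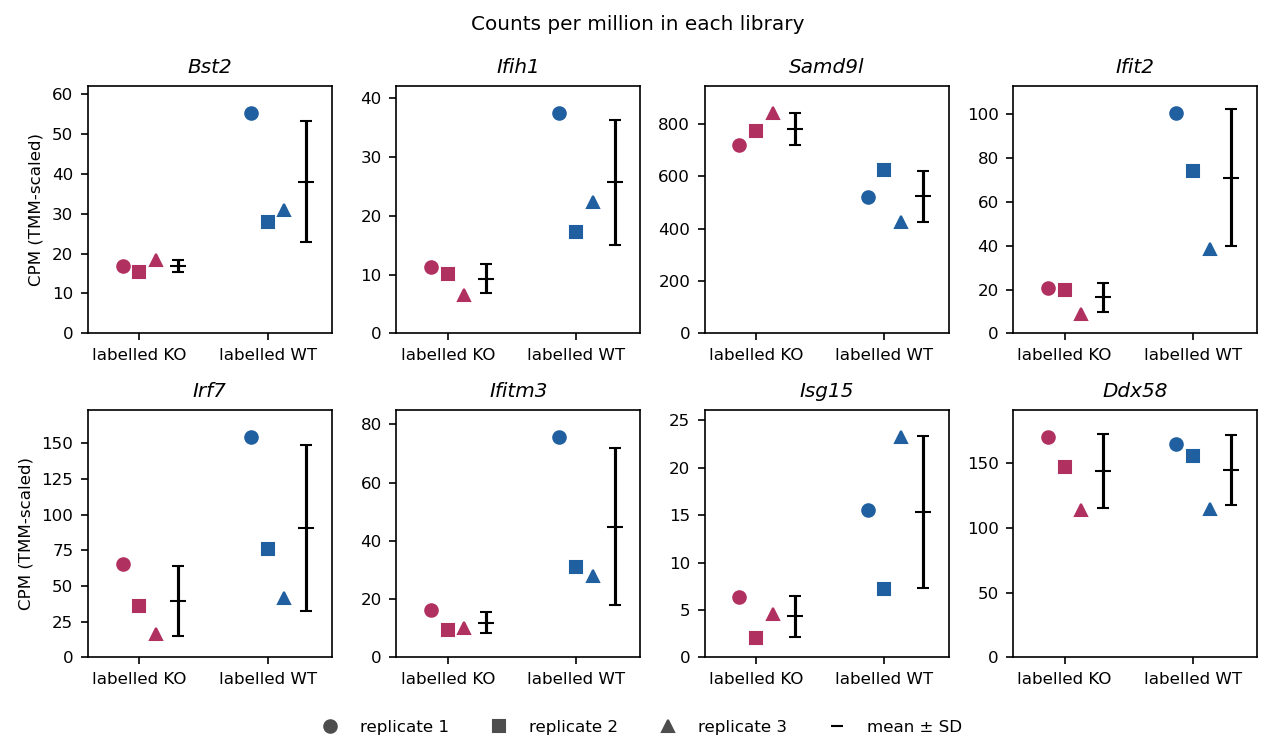
CPM on a linear axis from 0 for 8 genes, 1 point per library with its shape giving the replicate number and a bar for the mean ± SD (n = 3), with the libraries labelled KO left of those labelled WT. Bst2 lies between 15.4 and 18.3 CPM in the libraries labelled KO and between 27.8 and 55.3 CPM in those labelled WT, while Ddx58 overlaps throughout.

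The log2 fold change lay further below 0 in genes of lower mean level. Spearman's rho between mean TPM and the log2 fold change over the 42 genes was 0.52, a description over genes that share the same libraries. Mean TPM includes the libraries labelled KO, so a lower value there also lowers it, and the 2 quantities are not independent. No rho over all tested genes was taken. The median log2 fold change was -0.56 for genes above the median level of 28.3 TPM and -1.30 for those at or below it. With the block, 12.8% of all tested genes were lower and 7.96% higher. Of the 42, 21 had a log2 fold change of -1 or lower, and 19 of these were called with the block. They were picked by their fold change, so that count is in part set by the choice. The 16 genes whose promoter window holds the response element had a median log2 fold change of -1.35, and 14 of them were called with the block. The 18 without it had -0.69, and 9 of them were called with the block, Samd9l among them as a higher gene. Stat2 and Ddx58, whose sequences are shown above, hold the element and were at -0.17 and -0.01. Ifit2, at -2.11, has no match to these letters in its window.

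**Figure D5:**
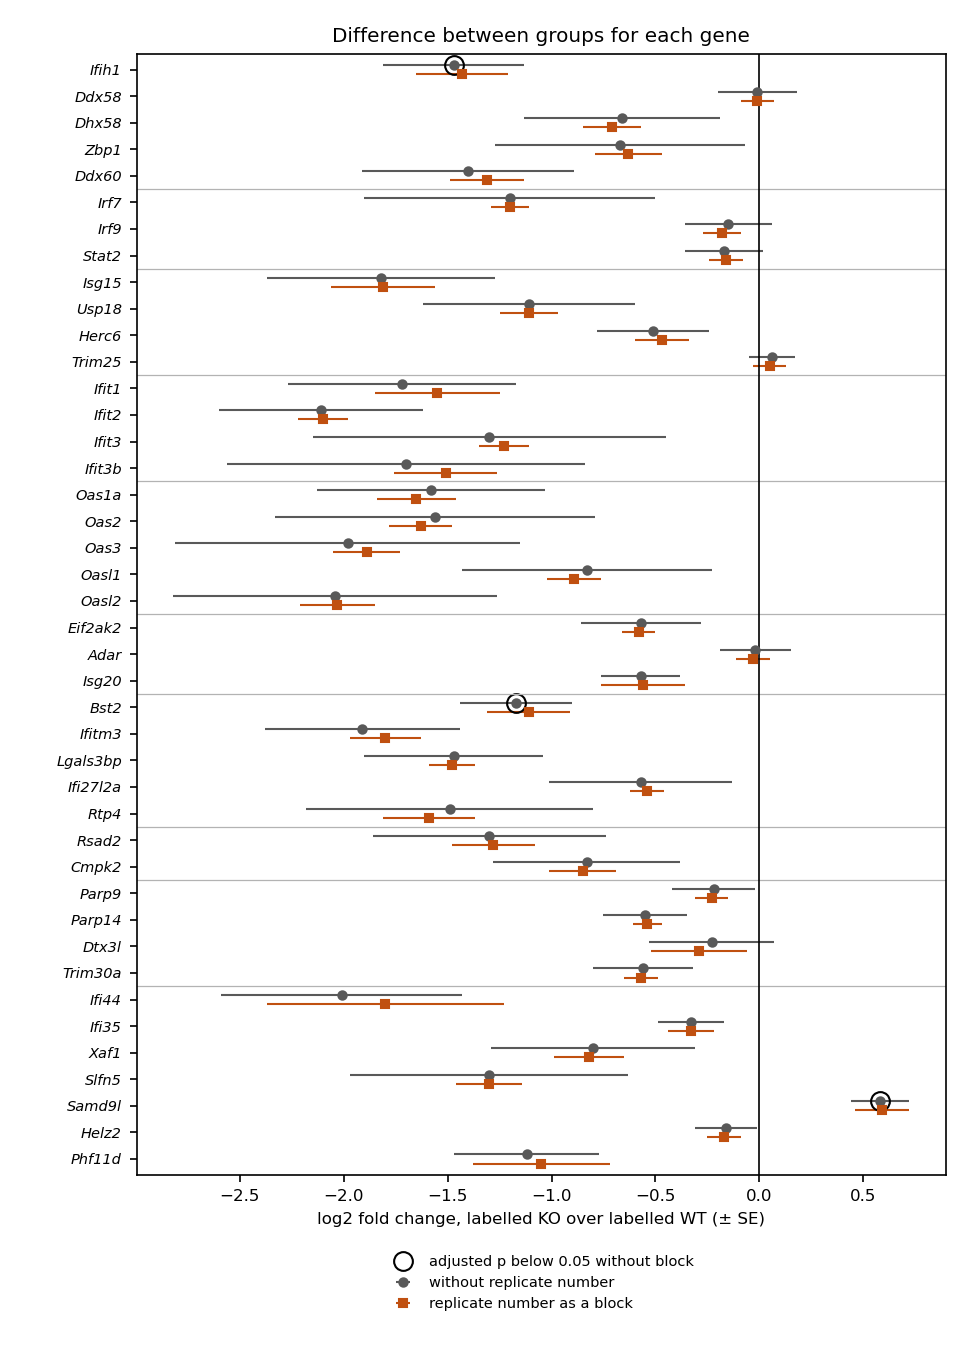
Log2 fold change of the libraries labelled KO over those labelled WT for each of the 42 genes, with its standard error, by role, for the fit without the replicate block (circles, ringed where the adjusted p is below 0.05) and the fit with it (squares). Points run from -2.11 for Ifit2 to 0.58 for Samd9l, and 40 of 42 lie below 0.

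Of 15 genes of the interferon receptor and its signalling, 4 fell, 0 rose and 11 did not pass, with a median log2 fold change of -0.14. Of all tested genes, 4.81% fell and 4.55% rose. Socs1, an inhibitor of JAK kinases, had 3.10, 2.59 and 2.53 CPM in the libraries labelled KO and 9.89, 11.4 and 6.86 CPM in those labelled WT. Here too there was no overlap (log2 fold change -1.77 ± 0.29, edgeR adjusted p = 0.0101), and the call was lost without that labelled KO replicate 2 (edgeR adjusted p = 0.0572). Socs3, of the same family, had 2.56, 2.66 and 4.13 CPM in the libraries labelled KO and 8.54, 8.21 and 5.81 CPM in those labelled WT (log2 fold change -1.27 ± 0.32, edgeR adjusted p = 0.0441). Jak1, a kinase at the receptor, had 837, 904 and 797 CPM in the libraries labelled KO and 1105, 1342 and 1092 CPM in those labelled WT (log2 fold change -0.48 ± 0.11, edgeR adjusted p = 0.0317). Irf1, a transcription factor of interferon responses, had 153, 145 and 118 CPM in the libraries labelled KO and 194, 189 and 182 CPM in those labelled WT (log2 fold change -0.44 ± 0.10, edgeR adjusted p = 0.0381). Each of these 4 genes was lower in all 3 libraries labelled KO than in any labelled WT. Socs3 was called only without the library labelled KO replicate 3 among the 6 fits without 1 library, Irf1 only without that labelled WT replicate 2, and Jak1 only without that labelled WT replicate 1 or 2. The receptor chains Ifnar1 and Ifnar2 had log2 fold changes of -0.17 ± 0.09 and -0.21 ± 0.10 and did not pass (edgeR adjusted p = 0.244 and 0.195).

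Of 19 tested genes that sense nucleic acid upstream of interferon, 2 rose, 0 fell and 17 did not pass, with a median log2 fold change of 0.02. Of all tested genes, 4.55% rose and 4.81% fell. With the block 2 were higher and 1 lower, against 7.96% and 12.8% of all tested genes. DESeq2 called 2 higher and 1 lower, against 6.99% and 11.4%. Slc15a4, a lysosomal transporter needed for endosomal Toll-like receptor signalling, had 228, 207 and 211 CPM in the libraries labelled KO and 134, 144 and 138 CPM in those labelled WT. The groups stood well apart, and it was called in every fit that left out 1 library (log2 fold change 0.63 ± 0.08, edgeR adjusted p = 0.00299). Tlr9, the endosomal sensor of CpG DNA in B cells, had 169, 144 and 100.1 CPM in the libraries labelled KO and 69.7, 63.0 and 53.9 CPM in those labelled WT (log2 fold change 1.15 ± 0.20, edgeR adjusted p = 0.0208). Its groups did not overlap, and the call was lost without that labelled KO replicate 2 or that labelled WT replicate 3 (edgeR adjusted p at most 0.0954). Of 21 named interferon ligand genes, only 2 were among the 16511 genes, and the rest have no values here. Of these 2, only Ifng, the type II ligand, had enough counts to be tested. Ifng had 2.49, 2.79 and 1.80 CPM in the libraries labelled KO and 0, 0.263 and 0.132 CPM in those labelled WT (log2 fold change 4.09 ± 0.82, edgeR adjusted p = 0.0233). The call was lost without that labelled KO replicate 1 or 2, or that labelled WT replicate 3 (edgeR adjusted p at most 0.112). All 3 values in the libraries labelled WT are at or near the limit of 0.194 to 0.201 CPM that a count of 0 allows.

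The guanylate-binding and immunity-related GTPases and other targets of interferon gamma were described beside the type I set. Of 25 tested genes, 5 fell, 0 rose and 20 did not pass, where 4.81% of all tested genes fell and 4.55% rose. The log2 fold change was below 0 for 23, against 48.5% of all tested genes, and its median was -0.67. With the block 14 were lower, against 12.8% of all tested genes, and DESeq2 called 13 lower, against 11.4%. Serpina3g, a protease inhibitor, had 9.96, 8.18 and 6.93 CPM in the libraries labelled KO and 43.3, 67.9 and 44.9 CPM in those labelled WT. The groups stood well apart, and it was called in every fit that left out 1 library (log2 fold change -2.64 ± 0.22, edgeR adjusted p = 5.57e-04). Tgtp2, a T cell-specific GTPase, had 20.1, 15.4 and 10.9 CPM in the libraries labelled KO and 91.95, 59.2 and 39.6 CPM in those labelled WT (log2 fold change -2.04 ± 0.37, edgeR adjusted p = 0.0303). Gbp7, a guanylate-binding protein, had 11.3, 11.7 and 6.47 CPM in the libraries labelled KO and 30.3, 29.7 and 17.1 CPM in those labelled WT (log2 fold change -1.39 ± 0.30, edgeR adjusted p = 0.0356). Tgtp2 and Gbp7 had no overlap between the groups. Gbp6, of the same family, had 4.31, 2.79 and 2.13 CPM in the libraries labelled KO and 20.9, 15.2 and 6.204 CPM in those labelled WT, also with no overlap (log2 fold change -2.19 ± 0.48, edgeR adjusted p = 0.0375). Without any 1 of the libraries labelled KO the calls of Tgtp2, Gbp7 and Gbp6 were lost (edgeR adjusted p at most 0.157), those of Gbp7 and Gbp6 also without that labelled WT replicate 1, and that of Gbp7 without that labelled WT replicate 2. Cxcl10 was the fifth gene called in this list, and only without that labelled WT replicate 3 was it called with 1 library left out.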

How the data were processed

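The authors deposited estimated counts per gene and per transcript, not scaled to depth, per the file headers, and TPM values, scaled to length and to a fixed sum. Tools named in the submitters' processing notes are RSEM 1.3.1, Bowtie2 2.2.5 and HISAT2 2.0.4, on mm10, without roles; the sources used here give no filters. Another 40 value columns stayed unused. Of the gene counts, 5.87% were not whole; all were rounded. Fractional counts mark reads shared between genes or transcripts, and 9 of the 42 genes have them (Eif2ak2, Ifit3, Ifit3b, Oas1a, Oas3, Phf11d, Slfn5, Stat2, Trim30a), so their values are uncertain. No strand-marking step is stated, so reads of overlapping antisense genes cannot be separated.

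Genes were filtered with filterByExpr by group and scaled by TMM, which left 12234 of 16511 genes, all 42 described ones included. The test was the robust quasi-likelihood F-test of edgeR 4.0.16 in R 4.3.3 on the label alone, with Benjamini-Hochberg adjustment over all tested genes and a threshold of 0.05. Standard errors come from the F statistic. CPM is the estimated count scaled to the library size after TMM. Alternatives were DESeq2 1.42.0, other scalings and filters, the replicate block and leaving out each library. The procedure was tested on simulated data. A count of 3 per library, the limit that a count of 0 allows, covers counting error only, since reads carry no molecular identifiers. Libraries of a group differed by more than sampling noise (chi-square over its degrees of freedom 11.8 to 45.8).

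Over all tested genes, deviations from group means in same-numbered libraries had a Pearson r of 0.175, 0.435 and 0.215 for replicates 1, 2 and 3. All lie above 0.1, so the numbers were treated as pairing; the labels do not state it, and deviations within a group sum to 0, which forces some positive values. The genes and lists were chosen with earlier results of these data known. Every one of the 42 could be named; per-library values are given for called genes, for the 2 of highest mean TPM in each role group, for those whose sign is opposite to the median, and in other pathway lists for up to 4 called genes. Ifi44, Siglech, Spib and Cxcl10 were chosen after their values were seen. A few list genes are not reported here.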

Additional observations from a re-analysis of the deposited data

How the results depend on the processing

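Of the 42 genes, 2 were lower in the libraries labelled KO, 1 without a filter on low counts, 16 by DESeq2 and 29 with the replicate block; with the block and without 1 pair the count lay between 24 and 31. Without 1 library it lay between 0 and 3. It was 0 without any 1 of the libraries labelled KO and 3 without any 1 of those labelled WT. Without labelled KO replicates 1, 2 and 3 in turn, 23, 11 and 9 genes had an unadjusted p under 0.05. The share of all tested genes at that p was not taken for these fits. Among the 42 genes the block changed no call beyond those given above. The count of higher genes was 1, and 0 with library size alone as scaling, and between 0 and 1 without 1 library or pair. The median log2 fold change of -0.97 lay between -1.20 and -0.52 without 1 library; it was -0.52 without that labelled WT replicate 1 and -0.67 without that labelled KO replicate 3. Over the pathway lists, of 15, 19, 1 and 25 tested genes, 12 genes were called, 22 with the block, and between 2 and 10 without 1 library. For the fits without 1 library, the share of all tested genes called in either direction was not taken. The share called lower lay between 0.753% and 9.57% in those fits. Of all tested genes, 9.37% were called, and 20.7% with the block. Transcripts of the 42 genes gave 0 calls under each of these alternatives that was run for transcripts. Between 36 and 41 genes lay below 0 under every alternative. Signs turned for 6 genes that were not called. Without 1 library, log2 fold changes ranged from -0.15 to 0.14 for Ddx58 and for Adar, -0.32 to 0.04 for Irf9, -0.30 to 0.02 for Stat2, -0.02 to 0.17 for Trim25 and -0.41 to 0.05 for Dtx3l. With the block and without 1 pair they ranged from -0.05 to 0.03 for Ddx58, -0.02 to 0.13 for Trim25, -0.08 to 0.05 for Adar and -0.58 to 0.02 for Dtx3l. The cause was not tested. With 3 libraries a group and a spread shared by number, calls are limited in number, and Ifi44 and Ifng rest on few counts.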
